A study of Mus musculus with 9 samples.

Results

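The genes described here are the MHC class I antigen presentation genes: the heavy chains H2-K1 and H2-D1, the light chain B2m, the transporter subunits Tap1 and Tap2, tapasin (Tapbp) and the immunoproteasome subunits Psmb8, Psmb9 and Psmb10. All 9 were chosen by name, and every probe that the platform annotation gives to them was taken, 19 of the 45281 probes on the array. Of these 19 probes 18 were tested, among 16577 tested probes in all, and all 9 genes were among the 8819 named genes tested. RNA came from lymph node fibroblastic reticular cells (FRCs) of female C57BL/6 mice, which form the scaffold along which immune cells move. There were 3 groups of 3 arrays, with the FRCs of 2 brachial nodes of 1 animal on each array: nodes that drained a tumour at day 11, nodes that drained a tumour at day 4, and nodes that drained a PBS injection, for which the labels give no day, so tumour and time cannot be told apart. The age of the mice, the tumour and the way the cells were isolated are not given in the sources used here.

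MHC class I molecules show peptides from inside a cell to CD8 T cells. The proteasome cuts proteins into peptides, the TAP transporter carries them into the endoplasmic reticulum, and tapasin holds TAP beside empty heavy and light chain pairs until a peptide binds. Interferons raise these genes together in many cell types, through factors such as IRF1 and NLRC5, and exchange the catalytic subunits of the proteasome for those of the immunoproteasome. FRCs guide and restrain T cells in the node, and class I on their surface lets CD8 T cells recognise them.

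The upstream sequences of the heavy and light chain genes are shown because they hold the elements through which these genes are usually switched together. RefSeq windows of assembly GRCm38.p6 were found for 8 of the 9 genes, all but Tap2, and the 250 bases before the start were searched on both strands, in the first listed window of a gene. The H2-K1 stretch lies at chr17:34000354-34000468 on the minus strand, the H2-D1 stretch at chr17:35262913-35263027 on the plus strand and the B2m stretch at chr2:122147540-122147643 on the plus strand. Capitals mark, in the order read, a kappa B type motif (GGGNNTTCC, a pattern not found in the B2m stretch), an interferon regulatory factor core (AANNGAAA, read on the opposite strand in H2-K1 and H2-D1), a CRE core (TGACG) and an inverted CCAAT box (ATTGG). Kappa B type sites of another length were not searched for, so the B2m stretch may hold one.
H2-K1: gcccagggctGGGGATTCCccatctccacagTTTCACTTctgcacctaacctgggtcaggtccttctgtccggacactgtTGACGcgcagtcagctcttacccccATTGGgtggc
H2-D1: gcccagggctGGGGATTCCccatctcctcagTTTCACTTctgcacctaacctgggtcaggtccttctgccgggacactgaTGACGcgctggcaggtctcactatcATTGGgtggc
B2m: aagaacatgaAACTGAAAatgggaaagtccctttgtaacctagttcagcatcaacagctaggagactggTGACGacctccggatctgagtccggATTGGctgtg

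The H2-K1 and H2-D1 stretches were identical at 104 of 115 bases (90.4%), with all 4 motifs at the same spacing. No marked motif overlapped another. Among one window for each of 27025 genes, 21.6% held the interferon regulatory factor core, 4.88% the kappa B type motif, 17.9% the CRE core and 34.5% the inverted CCAAT box. Of the 8 windows of these genes, the core was in 3, the kappa B type motif in 2, the CRE core in 5 and the inverted CCAAT box in 6. These counts hold only for the patterns as written. The gamma activated site (TTCNNNGAA) was in 7.18% of all windows and, among these genes, in that of Psmb8. In RefSeq, Psmb9, Tap1, Psmb8 and Tap2 follow one another on chromosome 17, and Psmb9 and Tap1 point away from each other. The 225 bases between their starts, at chr17:34187331-34187555 and read towards Tap1, lie upstream of both genes, with an inverted CCAAT box (here as CCAAT) near the Psmb9 start and a CRE core in capitals. These same sites were counted above for both Psmb9 and Tap1. The H2-K1 and H2-D1 hits likewise lie in nearly the same sequence, so the window counts are not of separate sequences.
Psmb9 to Tap1: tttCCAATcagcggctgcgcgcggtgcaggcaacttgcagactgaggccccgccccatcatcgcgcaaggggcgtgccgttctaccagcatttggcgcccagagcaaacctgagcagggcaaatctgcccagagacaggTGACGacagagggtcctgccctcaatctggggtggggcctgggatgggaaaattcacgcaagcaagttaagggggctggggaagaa

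Values below are normalized log2 intensities, that is, background-corrected probe brightness on a log2 scale. A difference of 1 is a doubling, and the level of one probe is not comparable with that of another. Replicates are given in the order 1, 2 and 3. The number of probes detected (detection p under 0.01) was 9606 to 14727 on day 11 arrays, 15198 to 17627 on day 4 arrays and 11529 to 16489 on PBS arrays, so the lowest detectable signal was not the same on each array. All 10 FRC markers, among them Pdpn, Pdgfra and Ccl19, were tested, although Pdgfrb was detected on only 4 arrays. The 10 summed to a linear intensity of 25690 to 30400 at day 11, 27960 to 29960 at day 4 and 25430 to 29160 in PBS. Of 8 endothelial genes, Pecam1 was detected on 4 arrays, Tie1 on 3, Prox1 and Flt4 on 1 each and Cdh5, Kdr, Lyve1 and Emcn on none. The 2 tested were Pecam1 and Tie1. Their summed linear intensity was 88.24 to 179.9 at day 11, 79.17 to 267 at day 4 and 116.1 to 391.3 in PBS. The pan-leukocyte gene Ptprc was detected on all 9 arrays, and leukocytes carry abundant class I and immunoproteasome RNA. The summed linear intensity of Ptprc, Laptm5 and Coro1a was 1983 to 4018 at day 11, 1498 to 2682 at day 4 and 2549 to 3084 in PBS. That of the 6 tested myeloid markers, of 13 listed, was 3128 to 4091 at day 11, 2236 to 3169 at day 4 and 2606 to 3551 in PBS, with Itgam, C1qb and C1qc detected on no array. The 5 tested T cell markers of 7 listed summed to 330.5 to 623.7 at day 11, 289.5 to 406.1 at day 4 and 444.6 to 607.7 in PBS. For the 2 tested B cell markers of 5 listed the sums were 216.7 to 425.4 at day 11, 134.3 to 277.4 at day 4 and 150.3 to 385.9 in PBS. The tested plasma cell markers (3 of 5) summed to 457.4 to 1194 at day 11, 147.9 to 279.5 at day 4 and 148.5 to 193.7 in PBS. One of them, the immunoglobulin gene Ighg1, was the only gene of all that passed, detected on 3 of 3 day 11 arrays and on no day 4 or PBS array. Day 11 was at least 12.4-fold above day 4 and at least 10.3-fold above PBS (limma adjusted p = 0.0167 and 0.0166). No gene was called against PBS on leaving out any 1 array other than day 11 replicate 3, or against day 4 on leaving out any 1 array other than day 11 replicate 3, PBS replicate 1 or PBS replicate 3. Over the 9 arrays, the mean of each marker list was correlated with the class I gene mean. It gave 0.59 for FRC, 0.26 for pan-leukocyte, 0.04 for myeloid and -0.29 for T cell markers. The 2 tested B cell markers gave -0.17, the plasma cell markers 0.24 and the 2 endothelial genes, each detected on few arrays, -0.74. The part of these cells in the class I values was not tested, and in such bulk samples fewer cells of a type and less RNA per cell cannot be told apart.

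The comparisons of each tumour group with PBS address whether tumour drainage altered FRCs early and later. Both use the same PBS arrays, so they are not independent of each other. No class I or loading gene passed the test in any of the 3 comparisons (limma, Benjamini-Hochberg adjustment over all tested probes). At day 11 against PBS 0 of 9 passed, beside 0.0113% of all tested genes. At day 4 against PBS 0 of 9 passed, beside 0% of all genes. At day 11 against day 4 0 of 9 passed, beside 0.0113% of all genes. With counting at an unadjusted threshold of 0.05, Psmb8 was higher at day 11 than in PBS, 1 of 9 genes beside 6.18% of all genes, and 0 of 9 were lower, beside 4.07%. Tap1 was lower at day 11 than at day 4, 1 of 9 beside 3.35%, and 0 of 9 were higher, beside 3.11%. No gene of the 9 met it at day 4 against PBS, where 4.72% of all genes were higher and 3.28% lower. Day 11 lay wholly above PBS in 1 of 9 genes (10.9% of all genes) and wholly below in 0 of 9 (7.26%). Day 4 lay wholly above PBS in 0 of 9 (6.23%) and wholly below in 0 of 9 (4.31%), and day 11 lay wholly above day 4 in 0 of 9 (7.9%) and below in 1 of 9 (7.6%). The median log2 change over the 9 genes was 0.11 at day 11 against PBS and 0.23 at day 4 against PBS, beside medians over all genes of 0.05 and 0.04. It was -0.01 at day 11 against day 4, beside 0.02 over all genes. At day 11 8 of the 9 were above PBS, beside 54.1% of all genes, although H2-D1, B2m and Tapbp were below PBS with scaling to the 75th percentile, and at day 4 7 of the 9, beside 53.8%. At day 11 4 of the 9 were above day 4, beside 51.5%. Without Tap1, which was near background, the medians were 0.13, 0.18 and 0.04.

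**Figure D1:**
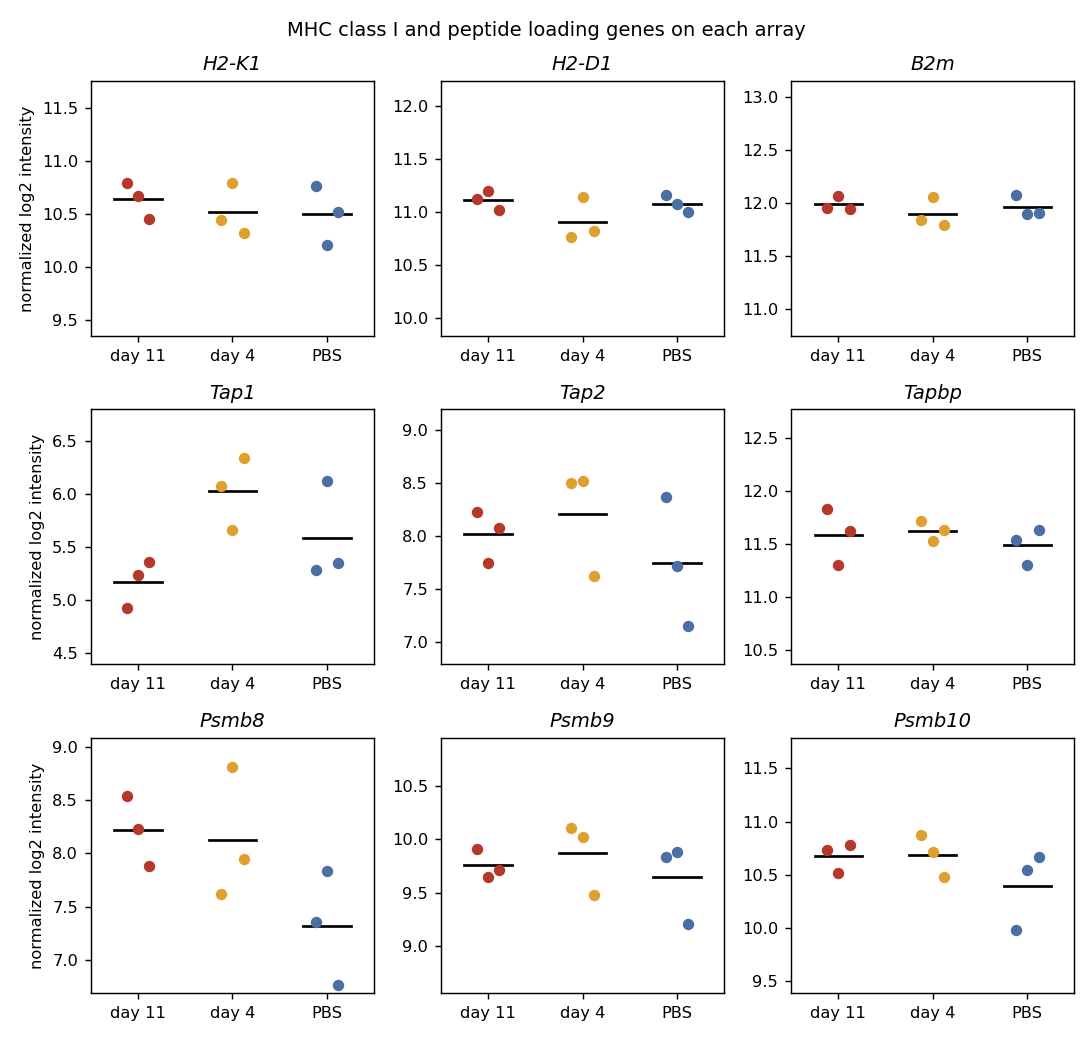
Normalized log2 intensity of the counted probe of each of the 9 genes on each array. Points are arrays (3 per group: day 11, day 4, PBS), bars are group means, and each panel spans the same range of log2 units. The 3 groups overlap in each pair for H2-K1, H2-D1, B2m, Tap2, Tapbp, Psmb9 and Psmb10, while the day 11 arrays lie above PBS for Psmb8 and below day 4 for Tap1.

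For the class I molecule itself no probe passed the test. Of its 9 tested probes 1, an H2-D1 probe, had all day 11 arrays above PBS, beside 10.9% of all genes. H2-K1, a classical heavy chain of the C57BL/6 mouse, read 10.79, 10.67 and 10.45 at day 11, 10.44, 10.79 and 10.32 at day 4 and 10.77, 10.21 and 10.52 in PBS. The ranges of the 3 groups overlapped, with the lowest array in PBS. The difference of day 11 from PBS was 0.14 ± 0.28 (SE, 3 arrays per group) with a limma adjusted p of 0.887, and folds between 0.718 and 1.69 lay inside its 95% interval. At day 4 it was 0.02 ± 0.28 (adjusted p = 0.992), allowing folds between 0.661 and 1.55.

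H2-K1 was read by 3 probes. The second read 8.12, 7.68 and 8.13 at day 11, 7.80, 8.55 and 7.38 at day 4 and 7.31, 7.10 and 7.81 in PBS, giving 0.57 ± 0.36 at day 11 and 0.50 ± 0.36 at day 4 against PBS. The remaining probe gave -0.01 ± 0.35 and -0.13 ± 0.35. None of them passed, and the size of any H2-K1 difference therefore depended on the probe. The sequences of the heavy chain genes are so alike that a probe may also read other class I genes, and probe sequences were not used here.

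H2-D1, the other classical heavy chain of this strain, read 11.12, 11.20 and 11.02 at day 11, 10.77, 11.14 and 10.82 at day 4 and 11.16, 11.08 and 11.00 in PBS. Day 11 and PBS covered nearly the same range, and the lowest arrays were 2 of the day 4 arrays. The difference was 0.04 ± 0.25 at day 11 against PBS (limma adjusted p = 0.963; folds of 0.701 to 1.51) and -0.17 ± 0.25 at day 4 (adjusted p = 0.912; log2 interval of -0.72 to 0.38). The sign of the day 11 value turned with scaling to the 75th percentile, and that of the day 4 value with the mean over probes.

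Of the further H2-D1 probes, one read 9.92, 9.32 and 9.80 at day 11, 9.70, 9.71 and 9.25 at day 4 and 9.28, 9.28 and 9.11 in PBS. All 3 day 11 arrays were above PBS there, as in 10.9% of all genes, by 0.46 ± 0.28 (limma adjusted p = 0.589), which did not pass. Another gave 0.16 ± 0.33 at day 11 and 0.12 ± 0.33 at day 4. The fourth was detected on 0 of 9 arrays and was not tested, although the other 3 were detected on all 9.

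B2m, the light chain that every class I heavy chain needs to reach the surface, had the smallest standard error of the 9 genes. It read 11.95, 12.07 and 11.94 at day 11, 11.84, 12.06 and 11.79 at day 4 and 12.08, 11.90 and 11.91 in PBS. Its group SDs were 0.07, 0.14 and 0.10 in that order, and the groups overlapped. The log2 difference was 0.03 ± 0.24 at day 11 against PBS (limma adjusted p = 0.977) and -0.07 ± 0.24 at day 4 (adjusted p = 0.974). The intervals allowed folds of 0.701 to 1.48 at day 11 and 0.657 to 1.39 at day 4. A second bright probe gave 0.07 ± 0.25 and 0.11 ± 0.25. A dimmer probe gave -0.31 ± 0.33 and 0.02 ± 0.33, so the sign differed between probes.

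Among the transporter genes, Tap1 could hardly be measured. Its only probe was detected on 0 of 3 day 11 arrays, 2 of 3 day 4 arrays and 1 of 3 PBS arrays. It read 4.92, 5.23 and 5.35 at day 11, 6.07, 5.66 and 6.33 at day 4 and 5.28, 6.12 and 5.35 in PBS. All day 11 arrays were below all day 4 arrays, which held for 7.6% of all genes, while the PBS arrays overlapped both groups. The log2 difference was -0.85 ± 0.32 at day 11 against day 4 (limma adjusted p = 0.705), -0.42 ± 0.32 at day 11 against PBS (adjusted p = 0.677) and 0.44 ± 0.32 at day 4 against PBS (adjusted p = 0.796). Day 11 gives only a bound, and no fold can be stated from it: the lowest detected signal was 5.95 to 6.88 on day 11 arrays, 5.57 to 5.88 on day 4 arrays and 5.71 to 6.50 on PBS arrays.

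Tap2, the other subunit of the transporter, was detected on all 9 arrays. It read 8.23, 7.74 and 8.08 at day 11, 8.50, 8.52 and 7.62 at day 4 and 8.37, 7.72 and 7.15 in PBS. The PBS arrays alone spanned more than the difference between any 2 group means. The difference was 0.27 ± 0.38 at day 11 (limma adjusted p = 0.834) and 0.46 ± 0.38 at day 4 (adjusted p = 0.822) against PBS. Without PBS replicate 3 the values were -0.03 at day 11 and 0.16 at day 4.

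Tapbp, which bridges TAP and the empty class I molecule, read 11.83, 11.31 and 11.62 at day 11, 11.71, 11.53 and 11.63 at day 4 and 11.54, 11.30 and 11.63 in PBS. The groups overlapped, and the differences from PBS were 0.10 ± 0.26 at day 11 (limma adjusted p = 0.916) and 0.14 ± 0.26 at day 4 (adjusted p = 0.940). The annotation ties this probe to another transcript accession than the second, dimmer probe, which gave 0.52 ± 0.43 and -0.04 ± 0.43. The sign of the counted probe's day 11 value turned with scaling to the 75th percentile.

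The immunoproteasome subunits replace constitutive catalytic subunits and alter which peptides are cut. All 5 tested probes of these 3 genes were above PBS at day 11 and at day 4, by 0.06 to 0.90 and by 0.03 to 0.81. Of all genes 54.1% and 53.8% were above PBS. The 3 counted probes kept that sign with scaling to the 75th percentile, but Psmb9 was -0.10 at day 11 without PBS replicate 3. Psmb8, the chymotrypsin-like subunit, differed most. It read 8.54, 8.23 and 7.88 at day 11, 7.61, 8.81 and 7.95 at day 4 and 7.36, 7.84 and 6.76 in PBS. The day 11 arrays were all above the PBS arrays, as in 10.9% of all genes, while day 4 overlapped PBS. The difference was 0.90 ± 0.40 at day 11 (limma adjusted p = 0.470) and 0.81 ± 0.40 at day 4 (adjusted p = 0.658), 1.86-fold and 1.75-fold, and neither passed. The intervals allowed folds of 1.01 to 3.44 and of 0.949 to 3.23.

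A second Psmb8 probe read 7.73, 7.49 and 7.68 at day 11, 6.49, 7.56 and 7.04 at day 4 and 6.28, 7.12 and 6.93 in PBS. The day 11 arrays were again all above PBS, by 0.86 ± 0.35 (limma adjusted p = 0.427), whereas the day 4 value was 0.25 ± 0.35. Over the 9 arrays both probes correlated at 0.69, and whether they read the same target was not tested. The day 11 value of the counted probe lay between 0.62 and 1.16 over 19 alternatives, none of which made it pass (lowest adjusted p = 0.298).

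Psmb9 takes the place of the constitutive subunit Psmb6, and its gene shares its upstream region with Tap1. It read 9.91, 9.65 and 9.71 at day 11, 10.11, 10.02 and 9.48 at day 4 and 9.83, 9.89 and 9.21 in PBS. All groups overlapped, and the differences from PBS were 0.11 ± 0.30 and 0.23 ± 0.30 (limma adjusted p = 0.915 and 0.898). Without PBS replicate 3 they were -0.10 and 0.0095. Psmb10, the trypsin-like subunit, read 10.73, 10.51 and 10.78 at day 11, 10.88, 10.71 and 10.48 at day 4 and 9.98, 10.54 and 10.67 in PBS. PBS replicate 1 was the low array. The differences were 0.28 ± 0.28 and 0.29 ± 0.28 (adjusted p = 0.750 and 0.857), and a second probe gave 0.06 ± 0.32 and 0.03 ± 0.32. Without PBS replicate 1 the counted probe's differences were 0.072 and 0.083.

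**Figure D2:**
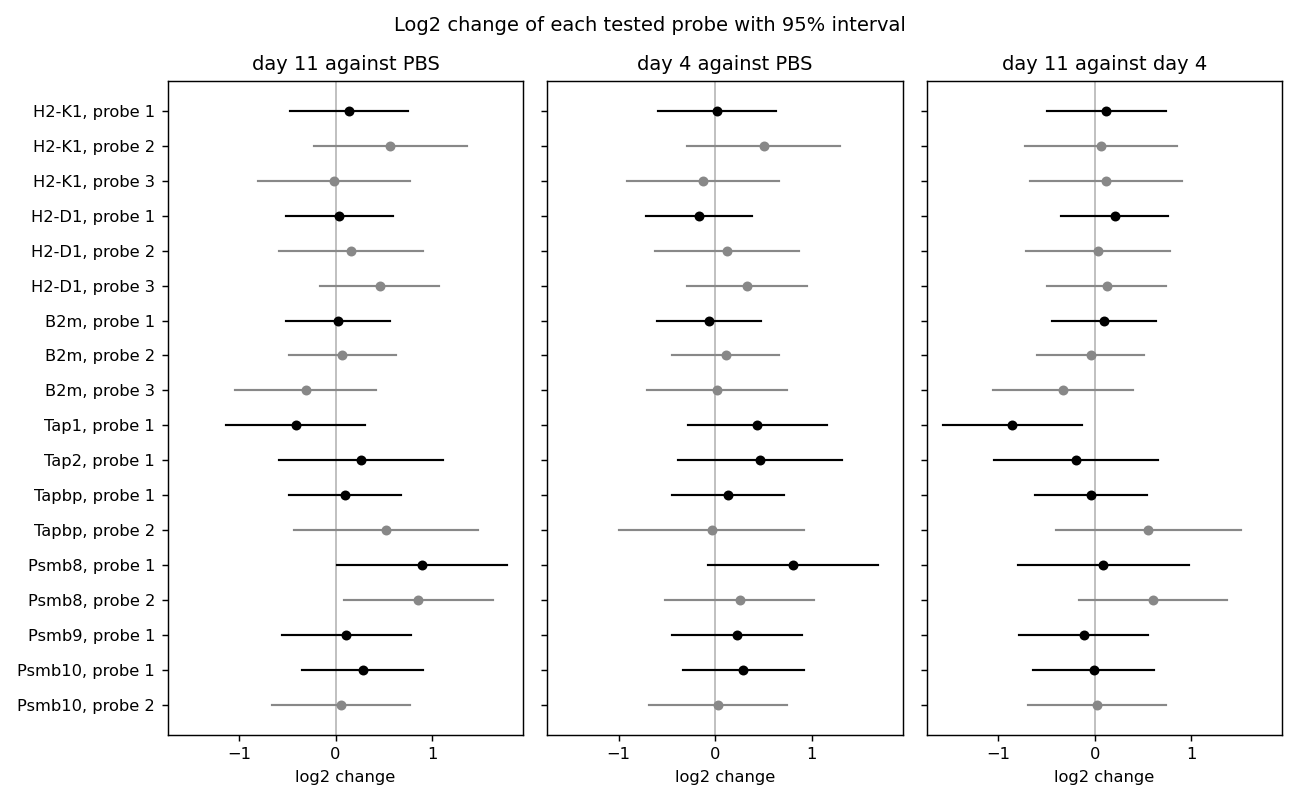
Log2 change of each of the 18 tested probes with its 95% interval from limma, for day 11 against PBS, day 4 against PBS and day 11 against day 4. Black marks the counted probe of a gene and grey its further probes. Against PBS only the 2 Psmb8 probes at day 11 have intervals above 0, before any adjustment over probes.

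The constitutive subunits that the immunoproteasome subunits replace were set beside them. Psmb5, the partner of Psmb8, read 7.57, 7.12 and 7.06 at day 11, 6.01, 6.84 and 6.25 at day 4 and 6.34, 6.80 and 6.18 in PBS. All day 11 arrays were above those of both other groups, by 0.81 ± 0.32 against PBS (limma adjusted p = 0.418), and the day 4 value was -0.07 ± 0.32. Psmb7, the partner of Psmb10, read 9.32, 9.28 and 9.58 at day 11, 9.10, 9.35 and 9.36 at day 4 and 8.03, 8.58 and 9.03 in PBS. It was above PBS on every array of both tumour groups, by 0.85 ± 0.31 and 0.72 ± 0.31 (adjusted p = 0.382 and 0.610), although one of its 3 probes gave -0.14 at day 4. Psmb6, the partner of Psmb9, gave 0.38 ± 0.30 and 0.08 ± 0.30, and its second probe -0.04 and -0.25. The Psmb8 value at day 11 was thus of the size seen for Psmb5 and Psmb7, and the difference between them was not tested.

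Of the proteasome activators and constitutive subunits, 6 of 7 were tested, 0 passed in either direction in each comparison, and the median was 0.47 at day 11 and 0.004 at day 4. Psme1, an activator subunit, had -0.30 ± 0.24 at day 4 (limma adjusted p = 0.821), with a second probe at 0.38. In the list of loading partners and peptide trimming enzymes, 8 of 11 genes were tested and 0 passed in either direction, with medians of 0.24 and 0.03. The cytosolic peptidases Tpp2 and Npepps had 0.73 ± 0.35 and 0.58 ± 0.33 at day 11 (adjusted p = 0.501 and 0.553) and 0.34 ± 0.35 and 0.36 ± 0.33 at day 4. Npepps was detected on 1 of 3 day 11 and 1 of 3 PBS arrays, near background. Against day 4, the chaperone Calr was higher at day 11 by 0.32 ± 0.25 and Bcap31 by 0.45 ± 0.37 (adjusted p = 0.871 and 0.876).

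Of 25 other class I related heavy chains 12 were tested, 9 were detected on fewer than 3 arrays and 4 were not analysed here. The tested genes had medians of 0.08 at day 11 and at day 4, and 0 passed in either direction. H2-T10 read 8.46, 8.33 and 8.52 at day 11, 7.88, 8.10 and 7.88 at day 4 and 7.72, 8.20 and 7.50 in PBS. All its day 11 arrays were above both other groups, by 0.63 ± 0.27 against PBS and 0.49 ± 0.27 against day 4 (limma adjusted p = 0.459 and 0.817). Its second probe gave 0.60 against PBS and 0.23 against day 4. Fcgrt, the neonatal Fc receptor heavy chain, had -0.39 ± 0.26 at day 11 (adjusted p = 0.615), with a second probe at -0.09. H2-M3 had 0.79 ± 0.47 and Hfe, a regulator of iron uptake, -0.53 ± 0.46 at day 4 (adjusted p = 0.717 and 0.837). H2-M3 was detected on 1 of 3 PBS and 1 of 3 day 11 arrays, so its size is uncertain.

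**Figure D3:**
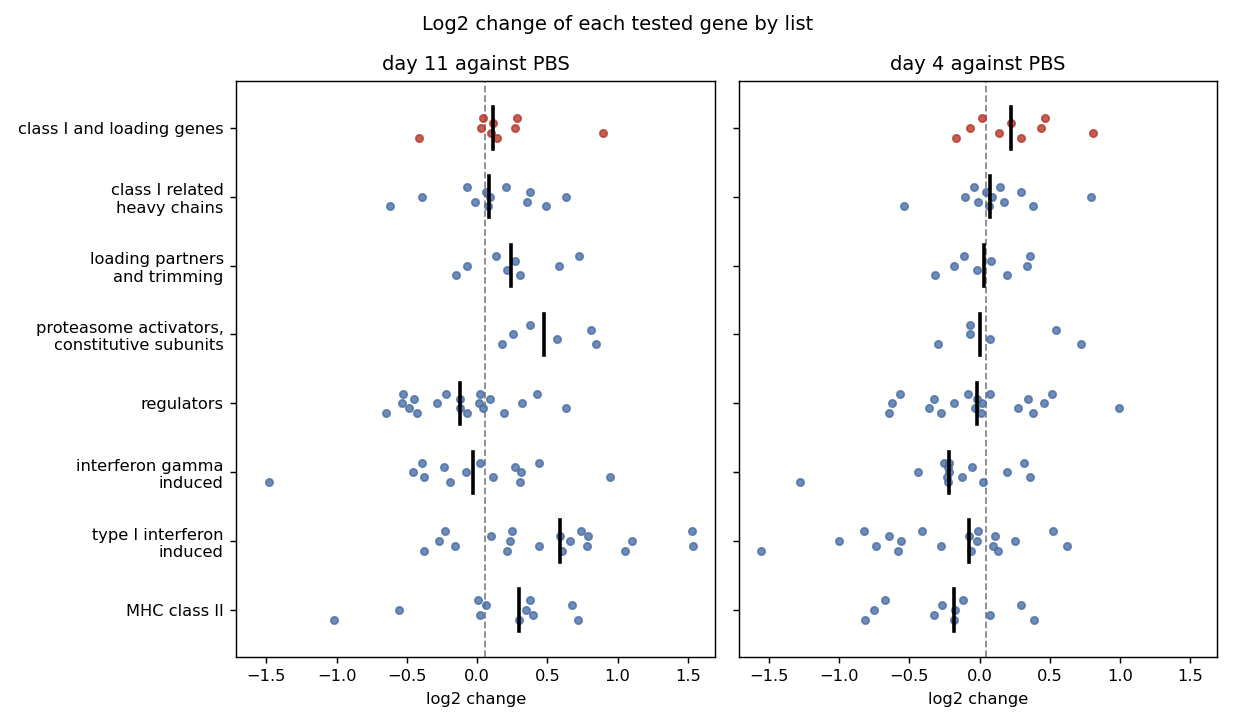
Log2 change of each tested gene (points) against PBS at day 11 and at day 4, by list, with list medians as black bars and the median of all tested genes as a dashed line. The class I and loading genes have medians of 0.11 and 0.23, and the type I interferon list 0.59 and -0.07.

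The regulators of class I expression gave no called gene either: 19 of 23 were tested, with medians of -0.12 at day 11 and -0.02 at day 4. Nlrc5, the transactivator of class I genes, read 8.04, 8.68 and 7.84 at day 11, 7.32, 7.98 and 8.26 at day 4 and 8.55, 8.30 and 8.58 in PBS. All day 4 arrays were below PBS, by -0.62 ± 0.34 (limma adjusted p = 0.693), and the day 11 value was -0.29 ± 0.34. Irf1 had 0.02 ± 0.28 and 0.01 ± 0.28, with further probes at -0.20 to 0.32 at day 11 and -0.22 to 0.04 at day 4. Rela, a subunit of NF-kappa B, read 9.92, 10.30 and 10.34 at day 11, 10.33, 10.51 and 10.58 at day 4 and 10.87, 10.75 and 10.88 in PBS. Both tumour groups lay wholly below PBS, by -0.65 ± 0.25 at day 11 (adjusted p = 0.417), which did not pass. Creb1, which binds CRE sites, had -0.54 ± 0.29 and -0.64 ± 0.29 (adjusted p = 0.539 and 0.632). Its further probes gave -0.55 and 0.04 at day 11, and -0.30 and 0.58 at day 4. At day 11 against day 4, Stat2, a transducer of type I interferon signals, had 0.75 ± 0.31 and Ifnar1, a type I interferon receptor subunit, -0.63 ± 0.37 (adjusted p = 0.732 and 0.820). Ifnar1 was detected on 0 of 3 day 11 arrays.

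Interferon-induced genes outside the class I pathway gave a mixed picture. Of the interferon gamma list 14 of 17 genes were tested, with medians of -0.03 and -0.21, and 0 passed in either direction. Gbp4, a guanylate binding protein, was detected on 0 of 3 day 11 arrays, and PBS was at least 1.48-fold higher than that bound (limma adjusted p = 0.248). At day 4 it had -1.28 ± 0.35 (adjusted p = 0.424). Irgm2, an immunity-related GTPase, had 0.95 ± 0.32 at day 11 against PBS and 0.75 ± 0.32 against day 4 (adjusted p = 0.361 and 0.736). Iigp1, of the same family, had -0.44 ± 0.35 at day 4 against PBS (adjusted p = 0.813), with further probes at -0.50 to -0.02. The chemokine Cxcl9 had 0.36 ± 0.37 at day 11 against day 4 (adjusted p = 0.910).

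The type I interferon list had medians of 0.59 at day 11 against PBS, -0.07 at day 4 against PBS and 0.78 at day 11 against day 4 over 19 of 24 genes, and 0 passed in either direction. At the unadjusted threshold 4 were higher and 0 lower at day 11 against PBS, beside 6.18% and 4.07% of all genes. At day 4 against PBS 0 were higher and 3 lower, beside 4.72% and 3.28%, and at day 11 against day 4 4 were higher and 0 lower, beside 3.11% and 3.35%. Its leading genes Isg15, a ubiquitin-like modifier, and Bst2, which tethers budding viruses, had 1.54 ± 0.32 and 1.53 ± 0.39 at day 11 (limma adjusted p = 0.217 and 0.256). Ifi204, a DNA sensor, read 8.56, 8.35 and 8.13 at day 11, 7.08, 6.16 and 5.63 at day 4 and 7.73, 7.53 and 6.62 in PBS. Oas2 had -1.56 ± 0.66 at day 4 (adjusted p = 0.610) and was detected on 1 of 3 day 4 and 2 of 3 PBS arrays. The class I and loading genes had a median of -0.01 between day 11 and day 4, where this list had 0.78. Whether the 2 sets differ was not tested.

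Across the 9 arrays some of the class I and loading genes were alike, but not all 9. Over the 36 pairs the median Pearson correlation was 0.12, beside 0.01 over all pairs of tested genes. Of the 36, 24 were above 0 (66.7%), beside 50.6% of all pairs. The pairs named below include the highest and the lowest, and how often other gene pairs reach such values was not counted. H2-D1 and B2m correlated at 0.90, H2-K1 and B2m at 0.77 and H2-K1 and H2-D1 at 0.62. Tap2 and Psmb9 correlated at 0.90. They belong to the run of Psmb9, Tap1, Psmb8 and Tap2 on chromosome 17, whose other pairs were lower. Psmb8 correlated at 0.55 with Psmb9 and 0.50 with Tap2. Tap1 correlated at 0.10 with Psmb9, -0.08 with Tap2 and -0.07 with Psmb8. Tap1 correlated at -0.76 with H2-K1, -0.70 with H2-D1 and -0.66 with B2m, at its near-background signal. These values describe 9 arrays that share group and array quality, and they carry no test. Probes of the same gene were not always closer: both bright B2m probes correlated at -0.07 and the Tapbp probes at -0.02.

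**Figure D4:**
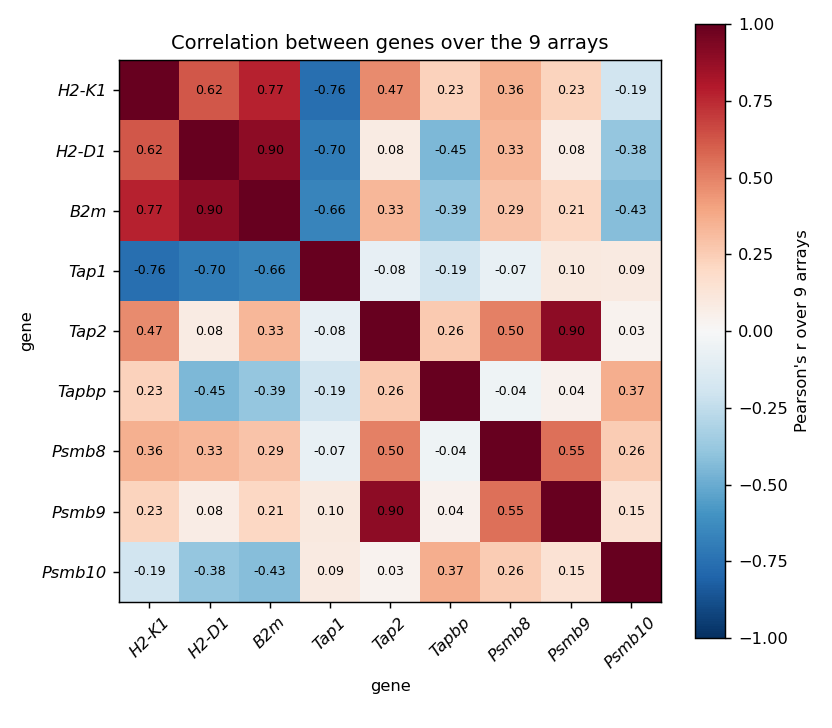
Pearson's correlation of the counted probes of the 9 genes over the 9 arrays, from -1 (blue) to 1 (red). H2-K1, H2-D1 and B2m form one block with values of 0.62 to 0.90, Tap2 and Psmb9 correlate at 0.90, and Tap1 is negative with the heavy and light chains.

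Taking the mean of the 9 genes per array, each centred over the 9 arrays, day 11 arrays had 0.12, -0.03 and -0.01, day 4 arrays 0.11, 0.26 and -0.05 and PBS arrays -0.06, -0.04 and -0.30. The groups overlapped, and PBS replicate 3 was the lowest array. The genes outside the set most like this mean were Lpcat3 (r = 0.94), Ppp1r15b (0.91), Tubgcp2 (0.90), Vars2 (0.90) and Tmem238 (0.89), over 9 arrays. All but Ppp1r15b had PBS means of 5.55 to 6.00, near background.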

How the data were processed

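Illumina mouse bead arrays were read on 9 samples of FRC RNA that had been amplified with a NuGEN kit, per the labels' protocols. The deposited raw table holds an intensity per probe and array in linear units that were not normalized, and beside it a detection p-value, per the file headers. Values that the authors processed are also deposited, as linear intensities; they share one distribution in all 9 columns, and the target of that normalization stays unknown. Per the deposited note, the authors used lumi, a variance-stabilizing transformation, quantile normalization and limma.

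Here the raw intensities were background-corrected and quantile-normalized on the log2 scale (neqc, offset 16; limma 3.58.1 under R 4.3.3), and a probe was tested if detected at p under 0.01 on at least 3 arrays. Symbols came from the platform annotation (34885 probes with 1 symbol, 18 with several, 10378 unnamed here), updated by gene identifier in RefSeq for 34807. A gene was counted by its tested probe with the highest mean. The 9 arrays entered one fit (lmFit, eBayes; 6 residual degrees of freedom), and p-values were adjusted by Benjamini-Hochberg over all 16577 tested probes at 0.05. SE and 95% intervals come from that fit, and the number of arrays limits the precision. For a gene that no array of a group detected, the other group's mean was set against the lowest detected signal of those arrays, or the probe's own signal where higher, as a bound. The limma fit was tested on simulated normalized values, and the motif search on made sequences with planted motifs. Background correction, normalization, the detection filter and the bounds were not tested in this way.

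The 9 genes and the 7 surrounding lists were chosen with earlier results of these data known. From each list the text names the 2 genes with the lowest p in each comparison, and Nlrc5, Irf1, Psmb5, Psmb6 and Psmb7 whatever their result. The genes most like the set are the 5 with the highest Pearson correlation. Alternatives were other background correction, scaling, filters, variance priors and weights, the authors' values, probe means, a replicate block, only the groups compared and leaving out each array. Per the series' design text, FRCs were pooled per animal and run in triplicate; if the triplicates were not separate animals, p-values measure only the spread between arrays.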

Additional observations from a re-analysis of the deposited data

Results flagged for a closer look

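In 4 of the named genes every day 11 array lay on one side of the PBS mean and every day 4 array on the other, and the day 11 against day 4 comparison tests that difference. Tap1 had -0.42 at day 11 and 0.44 at day 4, a difference of -0.85 (limma adjusted p = 0.705), and it was detected on 0 of 3 day 11 arrays. Psme1 had 0.18 at day 11 and -0.30 at day 4, a difference of 0.48 (limma adjusted p = 0.798), and its second probe was above PBS at both times. Isg15 had 1.54 at day 11 and -0.28 at day 4, a difference of 1.81 (limma adjusted p = 0.458). Ifi204 averaged 8.34 at day 11, 6.29 at day 4 and 7.29 in PBS, a difference of 2.05 between the days (limma adjusted p = 0.487). None of the 4 differences passed.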

How the results depend on the processing

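None of the 9 genes passed in any comparison under any of 19 alternatives, whose lowest limma adjusted p was 0.298. The other 52 named values did not pass under any either (lowest 0.124). The median over the 9 genes stayed within 9.42e-05 to 0.22 at day 11 against PBS, 0.11 to 0.35 at day 4 against PBS and -0.07 to 0.07 at day 11 against day 4. A block for the slide was planned and not run, as no slide is named in the headers.

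The number of all genes called, 1 at day 11 against PBS and 1 at day 11 against day 4, was 0 with no filter, 0 with the replicate block and 0 with only the groups compared. With a variance prior that follows intensity it was 11 and 2. Leaving out 1 array gave 0 to 1 in both, with 1 against PBS only without day 11 replicate 3, and 1 against day 4 only without day 11 replicate 3, PBS replicate 1 or PBS replicate 3. With the replicate block 0 of the 9 genes were called, and Ighg1 was no longer called in either comparison. Deviations of same-numbered arrays from their group means correlated between -0.05 and 0.06 over 9 pairs. Those of arrays with different numbers correlated between -0.04 and 0.03. No strong shared effect of the replicate number was therefore seen, but this cannot show whether same-numbered arrays were prepared together.

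Some signs turned. With scaling to the 75th percentile, day 11 against PBS gave -0.026 for H2-D1, -0.12 for B2m, -0.018 for Tapbp and -0.059 for Irf1. Irf1 was -0.0067 at day 4 against PBS and -0.052 at day 11 against day 4, where Psmb8 was -0.0019. With array weights Irf1 was -0.078 at day 11 and -0.084 at day 4 against PBS. With the mean of a gene's probes, B2m was -0.071 at day 11 and 0.021 at day 4 against PBS and -0.092 between the days. H2-D1 was 0.096, Psme1 0.043, Irf1 -0.052 and Psmb6 -0.085 at day 4 against PBS, and Tapbp was 0.26 and Psmb10 0.0063 between the days. The cause of these turns was not tested, beyond the probes that enter a mean.

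Leaving out 1 array gave these ranges where a sign turned. At day 11 against PBS they were -0.025 to 0.24 for Tapbp, -0.0037 to 0.087 for H2-D1, -0.014 to 0.085 for B2m, -0.17 to 0.13 for Irf1, -0.0060 to 0.27 for H2-K1, -0.032 to 0.58 for Tap2 and -0.10 to 0.23 for Psmb9. At day 4 against PBS they were -0.17 to 0.17 for Irf1, -0.31 to 0.11 for Psmb5, -0.10 to 0.32 for Psmb6 and -0.13 to 0.15 for H2-K1. At day 11 against day 4 they were -0.16 to 0.44 for Psmb8, -0.16 to 0.10 for Tapbp, -0.12 to 0.082 for Psmb10, -0.037 to 0.58 for Cxcl9, -0.16 to 0.11 for Irf1 and -0.31 to 0.0048 for Psmb9. Ranges that kept their sign at day 11 against PBS were -0.57 to -0.15 for Tap1, 0.62 to 1.16 for Psmb8 and 0.072 to 0.42 for Psmb10. At day 4 against PBS they were -0.28 to -0.10 for H2-D1, -0.15 to -0.0084 for B2m, 0.28 to 0.71 for Tap1, 0.16 to 0.77 for Tap2, 0.04 to 0.21 for Tapbp, 0.46 to 1.07 for Psmb8, 0.0095 to 0.42 for Psmb9 and 0.083 to 0.43 for Psmb10. Between the days they were 0.02 to 0.26 for H2-K1, 0.14 to 0.32 for H2-D1, 0.04 to 0.17 for B2m, -1.03 to -0.70 for Tap1 and -0.49 to -0.04 for Tap2.

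With 3 arrays a group, the stated intervals give the sizes of difference that remain possible. Signal over background limits Tap1 most, while the counted probes of the other 8 genes were detected on all 9 arrays.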

Other observations

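The MHC class II genes, which present peptides to CD4 T cells and mark antigen-presenting cells, were all 11 tested, and 0 passed in either direction in any comparison. Their median was 0.30 at day 11 against PBS, -0.18 at day 4 against PBS and 0.38 at day 11 against day 4. Cd74, the invariant chain, read 10.51, 10.46 and 9.62 at day 11, 8.75, 10.02 and 9.56 at day 4 and 10.16, 10.31 and 10.11 in PBS. Its day 4 arrays were all below PBS, by -0.75 ± 0.38 (limma adjusted p = 0.675), and it had 0.75 ± 0.38 at day 11 against day 4 (adjusted p = 0.798). Further Cd74 probes gave -0.19 and -0.72 at day 4 against PBS, and 0.24 and 0.58 between the days. H2-DMb1, part of the class II peptide exchanger, was detected on 1 of 3 day 11 arrays, 0 of 3 day 4 arrays and 2 of 3 PBS arrays, too few for a fold (adjusted p = 0.785 for day 11 against day 4 and 0.688 for day 4 against PBS). H2-Ob, which restrains that exchanger, had 0.67 ± 0.40 at day 11 against PBS (adjusted p = 0.579). Ciita, the class II transactivator, was detected on 0 of 3 day 11 arrays, 1 of 3 day 4 arrays and 2 of 3 PBS arrays.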
